A study of Mus musculus with 786 samples.

Results

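The data described here are single multipotent precursors 1 (MPP1) sorted from the bone marrow of bled mice, set against MPP1 of normal mice. MPP1 are the first progeny of the haematopoietic stem cell (HSC): they still give rise to every blood lineage, but renew themselves for a shorter time. Loss of blood calls for faster red cell production, which in the mouse draws on erythropoietin, on BMP signals and on division of early progenitors. A well was kept when its label counted a single cell and when it held 1000 or more genes at FPKM 1 or above. FPKM is a fragment count scaled to transcript length and to library size, so each value is relative within its own cell. This kept 50 of the 63 single-cell wells of the bled MPP1 plate, out of 373 cells kept in the whole series. Normal MPP1 were 51 cells of 55 on plate 1 and 48 cells of 68 on plate 2. The kept bled cell with the fewest genes had 1016, and the left-out well with the most had 648.

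All mice were C57BL6 animals of 6 to 8 weeks, and no genotype other than this strain is labelled. Bled MPP1 (1 plate) and normal MPP1 (2 plates) carried the same gate, CD48-CD150+CD135-CD34+. Bled HSC (1 plate) and normal HSC (2 plates), which differ from MPP1 by lacking CD34 at the surface, entered the statistical fit and a comparison between the cell types. The labels give neither the volume of blood taken, nor the time since bleeding, nor how many mice each plate was sorted from. Bleeding, the plate and the separate table of values that holds the bled plates cannot be told apart, since each bled group is 1 plate.

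The bled MPP1 plate detected more genes per cell. Its 50 cells held between 1016 and 5133 genes at FPKM 1, with a median of 3046.5. Cells of MPP1 plate 1 had a median of 2535 genes (1040 to 4287), and cells of MPP1 plate 2 had a median of 2520.5 (1004 to 4076). Both ends of the range differed: 6 bled cells held fewer than 2000 genes, against 12 cells of plate 1 and 11 of plate 2, and 16 bled cells held 3500 genes or more, against 5 cells of plate 1 and 9 cells of plate 2. A cell with more detected genes has more chances to detect any given gene, so for most lists the counts of genes above and below the normal plates are also given for cells with at least 2000 and fewer than 3500 genes, called mid-range cells (28 bled, 34 on plate 1, 28 on plate 2). This band was chosen after the numbers of genes had been seen. A further measure at equal detection was the share of cells that held a gene among their 1000 highest values. Wells labelled as holding no cell had medians of 463, 669.5 and 409 genes on the bled plate and on normal plates 1 and 2, and 3 of 29, 6 of 28 and 4 of 13 of them reached 1000 genes. The cells and the empty wells are drawn in the plot of genes detected per well.

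**Figure D1:**
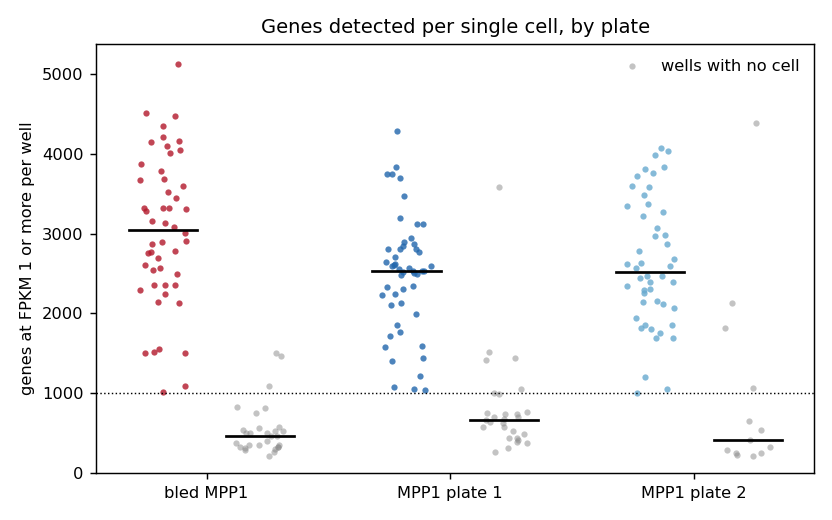
Genes at FPKM 1 or more in each well of the bled MPP1 plate and of MPP1 plates 1 and 2: coloured points are kept single cells, grey points are wells with no cell, black bars are medians and the dotted line marks 1000 genes. The bled median (3046.5) lies above those of plate 1 (2535) and plate 2 (2520.5).

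The surface markers of the gate were checked in the RNA. Cd34, the marker that separates MPP1 from HSC, was detected in 33 of 50 bled cells (66%), against 36 of 51 (70.6%) and 34 of 48 (70.8%) normal cells, with plate means of log2(FPKM + 1) of 3.82, against 3.81 and 3.88. Flt3, which encodes CD135, was found in 5 bled cells, against 10 and 5 normal cells. Cd48 was found in 4 bled cells, against 4 and 1 normal cells. Slamf1, which encodes CD150, was detected in 13 bled cells (26%, exact 95% interval 14.6% to 40.3%), against 5 cells on each normal plate (9.80% and 10.4%). Kit, the stem cell factor receptor, was detected in 37 bled cells, against 49 and 42 normal cells. Ly6a, the gene of Sca-1, was detected in 28 bled cells, against 22 and 24. Of these, the 5 genes that reached the filter for testing (all but Cd48) did not pass the limma test described below. Markers of other cells were checked. Of the neutrophil, macrophage and mast cell lists no gene reached the filter for testing, and no bled cell held 3 or more markers of any of B, T or NK, neutrophil, macrophage, mast or endothelial cells. At least 3 markers of mature red cells were seen in 4 bled cells, against 6 and 2 normal cells. Single markers were seen more often. Cd79b, a subunit of the B cell receptor, was detected in 18 bled cells, against 14 and 19 normal cells, and Nkg7, a cytotoxic granule gene, in 16 bled cells, against 21 and 18 normal cells. Intervals here and below cover counting error only.

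The test across genes used limma on the plate mean of log2(FPKM + 1), with 6 plates in 4 groups. With 1 bled MPP1 plate, the fit assumes that this plate varies like the plates of the other groups. The bled plate also counts in the filter for testing, so a high bled share could carry a gene in. Some genes named below, such as Id1, Ecsit, Aldoc, Ctps and Ccne2, averaged under 10% on the normal plates and passed only through it. The same held for Alg8, Clu, Rad54b, Tcf19, Tspan6, Entpd6, 1700112E06Rik and G530011O06Rik. All of these are among the genes called higher below. The count of genes called higher thus includes genes that their bled share let into the test, and their calls are no separate support. For Ecsit the shares were 3.92% and 6.25% on the normal plates, against 34% in bled MPP1. Of 7516 genes detected in at least 10% of MPP1 cells (mean of the plates), 43 (0.572%) passed an adjusted p of 0.05 as higher in bled MPP1, and 0 (0%) as lower. At an unadjusted limma p under 0.05, 880 genes were higher and 82 lower. Differences of the 43 called genes ranged from 0.87 to 3.09 on the log2 scale, while the median of all tested genes was 0.20 above 0. All 43 had a higher level and a higher share of cells in the bled plate than in both normal plates, 41 of them also in mid-range cells, and all 43 at equal detection. The count of calls rests on the normal MPP1 plates: it was 1 without MPP1 replicate 1 and 13 without MPP1 replicate 2. It was 0 in mid-range cells, where 38 of the 43 genes were tested. All 38 had a positive difference there. The 43 genes were picked as higher on these same plates, and mid-range cells are part of the same cells. Their direction in mid-range cells or at equal detection is thus no separate support.

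The bled plate lay above both normal plates, in level and in share of cells, for 3582 genes (47.7%), and below both for 953 (12.7%). In mid-range cells these shares were 29.9% and 21.3%, and at equal detection 31.2% and 34.2%, so that the upward lean was not seen at equal detection. The median gap between the normal MPP1 plates was 0.29 on the log2 scale over all tested genes. Transcript length moved with the difference: the median difference was 0.58 for genes with transcripts under 1000 bases, 0.39 from 1000 to under 2000 bases, 0.17 from 2000 to under 4000 bases and 0.05 from 4000 bases. The 43 called genes had a median transcript length of 1576 bases, against 2771 bases for all tested genes. In mid-range cells the same length classes had medians of 0.35, 0.18, 0.02 and -0.06. The part of length in the results was not tested. Of 17 tested housekeeping genes 5 lay above both normal plates and 0 below, with a median difference of 0.41 in all cells and 0.48 in mid-range cells, a scale against which the lists below can be read. List counts are to be read beside the shares over all tested genes, 47.7% above and 12.7% below. Mid-range medians of the lists are to be read beside that of all tested genes too, which was 0.05.

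Genes of oxidative phosphorylation stood highest among the 32 gene lists examined. This machinery of the inner mitochondrial membrane passes electrons from NADH and succinate to oxygen and uses the resulting proton gradient to make ATP. HSC are known for low reliance on it and their dividing progeny for more. All 48 listed genes were tested. Of them 42 lay above both normal plates and 1 below, 21 had an unadjusted limma p under 0.05 as higher and 2 were called. Their median difference was 1.15 in all cells and 0.77 in mid-range cells, where 30 lay above both plates and 1 below. At equal detection 41 lay above and 2 below. On average each gene was detected in 79.8% of bled cells, against 65.3% and 68.1% of normal cells. The median transcript length of the list was 903 bases, and its genes under 1000 bases had a median difference of 1.24, against 0.58 for all genes of that length. Its genes of 1000 to under 2000 bases had a median of 1.12, against 0.39 for all genes of that length.

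By complex, 14 of 15 subunits of complex I (NADH dehydrogenase) lay above both normal plates, with a median difference of 1.525, and 13 of 15 in mid-range cells. The other complexes gave 3 of 4 for complex II, 4 of 6 for complex III, 8 of 9 for complex IV and 12 of 13 for ATP synthase, and cytochrome c lay above as well. In mid-range cells these counts were 2 of 4, 2 of 6, 6 of 9 and 6 of 13, and cytochrome c again lay above. Ndufb9, an accessory subunit of complex I on chromosome 15, was detected in 43 of 50 bled cells (86%, exact 95% interval 73.3% to 94.2%), against 31 of 51 (60.8%) and 25 of 48 (52.1%) normal cells. Its plate mean level was 6.45 in bled MPP1, against 3.85 and 3.50 in normal MPP1, a difference of 2.77 ± 0.65 (standard error; limma adjusted p = 0.031). Ndufa1, another accessory subunit on the X chromosome, had a level of 6.03 in bled MPP1, against 2.72 and 3.90 in normal MPP1 (difference 2.72, adjusted p = 0.038). Ndufb6, a complex I subunit on chromosome 4 that the list did not hold, had a level of 5.86 in bled MPP1, against 3.04 and 3.08 (difference 2.80 ± 0.62, limma adjusted p = 0.025). For these genes the bled plate stood clear of both normal plates, by more than the normal plates differed from each other. Other members did not pass. Sdhb, the iron-sulphur subunit of succinate dehydrogenase, had a level of 6.00 in bled MPP1, against 3.46 and 4.12 (limma adjusted p = 0.088). Ndufs3, a core subunit of complex I, was the member below both plates, with a difference of -0.31.

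Lists next to the respiratory chain lay on the same side, with a single call among their members. Of 18 tested genes of the tricarboxylic acid cycle, which feeds the chain with NADH and succinate, 13 lay above both normal plates and 1 below, with a median difference of 0.70 (5 above, 2 below and 0.22 in mid-range cells). Fh1, fumarate hydratase, was detected in 29 bled cells, against 9 and 13 normal cells (limma adjusted p = 0.066). Glycolysis, the route from glucose to pyruvate, had 13 of 18 genes above and 1 below, with a median difference of 0.80. In mid-range cells 7 lay above and 3 below, with a median of 0.40, under the 0.48 of housekeeping genes there. The mid-range median of the tricarboxylic acid cycle (0.22) also lay under that of housekeeping genes. Both lists lay above the 0.05 of all tested genes there. Pfkl, a phosphofructokinase subunit, was detected in 22 bled cells, against 13 and 12. Of 21 tested antioxidant genes 15 lay above and 1 below, with a median of 0.85. In mid-range cells 8 lay above and 2 below, with a median of 0.29, again between all tested genes and housekeeping genes. Prdx4, a peroxidase of the endoplasmic reticulum, was the member that passed. It was detected in 32 bled cells, against 12 and 14 normal cells, with levels of 3.86, against 1.54 and 1.76 (difference 2.22, limma adjusted p = 0.031). Mt1, a metal-binding metallothionein, was detected in 16 bled cells, against 4 and 7 normal cells (adjusted p = 0.066). Among called genes outside the lists were Aldoc, a glycolytic aldolase (12 bled cells, against 3 and 1), Chchd6, a subunit of the complex that shapes mitochondrial cristae (25 bled cells, against 7 and 7), Mrpl13, a protein of the mitochondrial ribosome (38 bled cells, against 24 and 18), and Ecsit, an assembly factor of complex I (17 bled cells, against 2 and 3). These genes were chosen after their values were seen.

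**Figure D2:**
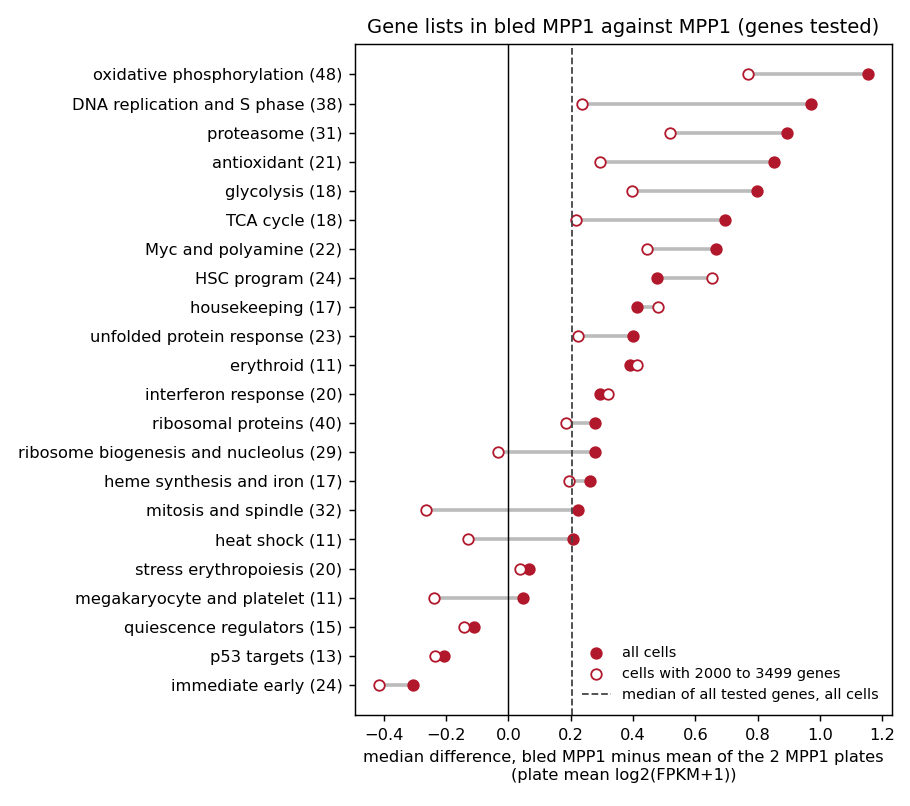
Median over the tested genes of each list of the difference in plate mean log2(FPKM + 1), bled MPP1 minus the mean of the 2 MPP1 plates, in all cells (filled) and in mid-range cells (open), for lists with at least 10 tested genes (number in brackets). Oxidative phosphorylation is highest in both (1.15 and 0.77) and immediate early genes are lowest (-0.30 and -0.41), while replication genes drop from 0.97 to 0.24 and mitosis genes from 0.22 to -0.26.

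Genes of the proteasome, the complex that degrades ubiquitin-tagged proteins, lay on the same side. All 31 listed subunits were tested: 28 lay above both normal plates and 0 below, 12 had an unadjusted limma p under 0.05 as higher, and 1 was called. The median difference was 0.89 in all cells and 0.52 in mid-range cells, where 15 lay above and 1 below. That 0.52 was close to the 0.48 of housekeeping genes in mid-range cells. Of the 20S core, the barrel that cuts proteins, 12 of 14 subunits lay above both plates, and of the 19S cap, which recognises and unfolds them, 16 of 17. In mid-range cells 10 core subunits and 5 cap subunits lay above both plates. Psmb5, the catalytic subunit with chymotrypsin-like activity, was detected in 36 bled cells (72%, exact 95% interval 57.5% to 83.8%), against 18 of 51 (35.3%) and 23 of 48 (47.9%) normal cells. Its level was 4.51 in bled MPP1, against 1.62 and 2.17 in normal MPP1 (difference 2.62 ± 0.56, limma adjusted p = 0.016). Psmb6, the catalytic subunit with caspase-like activity, had a level of 7.00 in bled MPP1, against 4.25 and 4.81, and did not pass (adjusted p = 0.068). Proteasome genes had a median transcript length of 1512 bases, and those of 1000 to under 2000 bases had a median difference of 0.89, against 0.39 for all genes of that length.

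Several called genes belong to nucleotide, polyamine and folate metabolism. Shmt1, the cytosolic enzyme that moves a carbon unit from serine to folate, was detected in 23 of 50 bled cells (46%, exact 95% interval 31.8% to 60.7%), against 2 of 51 (3.92%) and 10 of 48 (20.8%) normal cells. Its level was 2.72 in bled MPP1, against 0.21 and 0.94 in normal MPP1 (difference 2.15 ± 0.39, limma adjusted p = 0.0027). Srm, spermidine synthase, was detected in 26 bled cells, against 9 and 13 normal cells (difference 2.17, adjusted p = 0.014). Ctps, which makes CTP from UTP, was detected in 18 bled cells, against 5 and 4 (difference 1.38, adjusted p = 0.032). These genes are members of a list of 22 Myc targets and polyamine genes, of which 13 lay above both plates, 4 below, and 3 were called. In mid-range cells 10 lay above and 5 below. Over all tested genes the shares were 47.7% above and 12.7% below in all cells, and 29.9% and 21.3% in mid-range cells. Aprt, which salvages adenine, was detected in 40 bled cells, against 19 and 28 (difference 2.68, adjusted p = 0.030). Ppa1, the pyrophosphatase that clears a by-product of nucleotide polymerisation, was detected in 41 bled cells, against 25 and 18 (difference 2.69, adjusted p = 0.030). Polr1d, a subunit shared by RNA polymerases I and III, was detected in 40 bled cells, against 23 and 30 (difference 2.52, adjusted p = 0.038). Ribosomal protein genes lay closer to the normal plates: of 40 such genes 8 lay above both plates and 4 below, with a median difference of 0.28 and a median transcript length of 834 bases. In mid-range cells 1 lay above and 1 below. Of 29 genes of ribosome biogenesis 14 lay above and 1 below, with a median of 0.28 (6 above, 3 below and -0.03 in mid-range cells). The 14 above lay near the 47.7% of all tested genes.

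The gene with the largest called difference was Ppil1, a peptidyl-prolyl isomerase of the spliceosome on chromosome 17. It was detected in 35 of 50 bled cells (70%, exact 95% interval 55.4% to 82.1%), against 15 of 51 (29.4%) and 16 of 48 (33.3%) normal cells. Its level was 4.90 in bled MPP1, against 1.39 and 2.22 in normal MPP1 (difference 3.09 ± 0.54, limma adjusted p = 0.0019). In the wells with no cell Ppil1 was seen in 20.7% on the bled plate, against 3.57% and 7.69% on the normal plates. Tmed3, a cargo protein of the early secretory pathway, was detected in 25 bled cells, against 10 and 12, and Khk, which phosphorylates fructose, in 34 bled cells, against 15 and 16 (adjusted p = 0.030 for each by limma). Fkbp11, a prolyl isomerase of the endoplasmic reticulum chosen after its values were seen, was detected in 20 bled cells, against 4 and 7 (difference 2.10, adjusted p = 0.0061). Of 23 tested genes of the unfolded protein response 13 lay above both plates and 2 below (9 and 4 in mid-range cells), and none was called by limma (2 higher and 0 lower at an unadjusted p under 0.05). Atf4, a transcription factor of that response, was 1 of those below, with levels of 3.56 in bled MPP1, against 4.60 and 4.76. Over all tested genes 47.7% lay above both plates and 12.7% below, so the 13 of 23 were not far from that share.

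**Figure D3:**
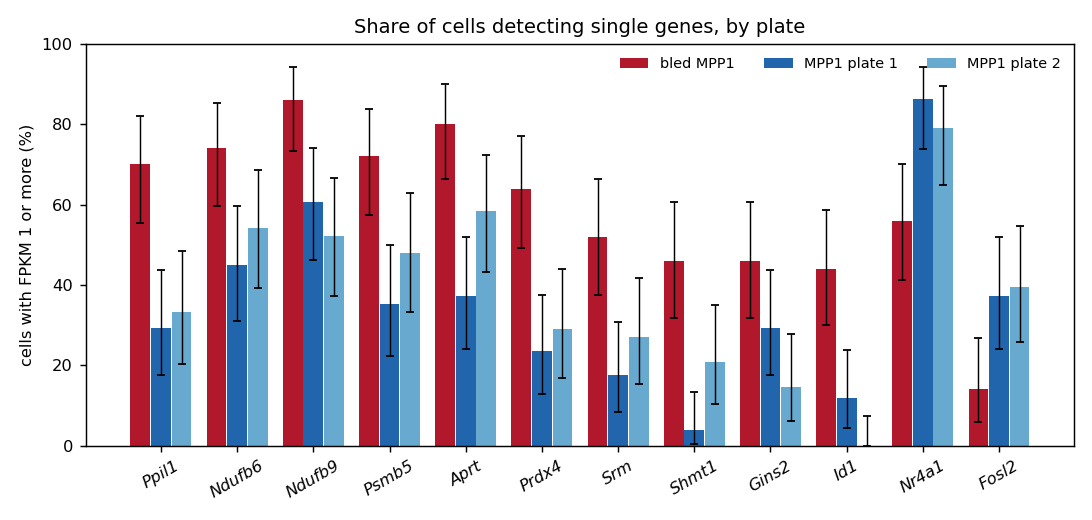
Share of kept cells with FPKM 1 or more for 12 genes on the bled MPP1 plate (red) and on MPP1 plates 1 and 2 (blue), with exact 95% binomial intervals for counting error. From Ppil1 to Id1 the bled share is the highest of the 3 plates (70% against 29.4% and 33.3% for Ppil1), and for Nr4a1 and Fosl2, which were not called, it is the lowest (56% against 86.3% and 79.2% for Nr4a1).

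DNA replication genes came next. They encode the factors that license origins (the MCM helicase), fire them (GINS, cyclin E), supply nucleotides and copy the strands, and are transcribed as cells enter S phase under E2F factors. Of 38 tested members 33 lay above both normal plates and 0 below, 18 had an unadjusted limma p under 0.05 as higher, and 2 were called. The median difference was 0.97, but 0.24 in mid-range cells, under the 0.48 of housekeeping genes and above the 0.05 of all tested genes there. In that band 15 lay above and 4 below. The band leaves out cells of 3500 genes or more, where the median bled cell detected 32 listed genes, against 13 in mid-range bled cells. The part of that choice in the drop was not tested. At equal detection 27 lay above and 2 below. The median transcript length of the list was 2936 bases, and its genes of 2000 to under 4000 bases had a median difference of 1.05, against 0.17 for all genes of that length. Gins2, a subunit of the replicative helicase, was detected in 23 of 50 bled cells (46%), against 15 of 51 (29.4%) and 7 of 48 (14.6%) normal cells, with levels of 3.24, against 1.86 and 0.66 (difference 1.98 ± 0.47, limma adjusted p = 0.032). Ccne2, cyclin E2, was detected in 14 bled cells, against 7 and 2 (difference 1.01, adjusted p = 0.038). For Gins2 the gap between the normal plates (1.86 and 0.66) was nearly as wide as that between bled MPP1 and plate 1. All 6 subunits of the MCM helicase lay above both plates, with a median difference of 1.28, and none of them was called. In mid-range cells 2 of the 6 lay above both plates. Mcm5 was detected in 32 bled cells, against 14 and 16 normal cells, with levels of 3.59, against 1.58 and 1.96 (difference 1.82, adjusted p = 0.066). Rpa2, which coats single-stranded DNA, was detected in 31 bled cells, against 15 and 14 (difference 1.90, adjusted p = 0.053). Orc1 and Ccne1 did not reach the filter, with 7 and 5 bled cells, against 2 and 3 and against 2 and 0 normal cells.

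Some promoters of these genes, though not most, hold the letters of the E2F site. With TTTCCCGC, TTTGGCGC, TTTCGCGC and TTTGCCGC searched on both strands from 250 bases before to 50 bases after the start, 13 of the 32 replication genes with a promoter sequence (40.6%) had a match, against 5.76% of all tested genes and 2.60% of the 27025 genes in the table. Matches on the 2 strands can overlap, because the letters GCGC read the same on both. Mitosis genes had a match in 1 of 27 promoters, and the genes called higher in bled MPP1 in 1 of 34 (2.94%). A match is a run of letters and not a bound site. The 200 bases before the start are shown for 4 members of the list, chosen because they hold a match there and lay above both normal plates, with the matches in capitals. The sequences are those of RefSeq on GRCm38.p6, at chr8:75109309-75109508 (plus strand) for Mcm5, chr1:128359706-128359905 (minus strand) for Mcm6, chr5:138171884-138172083 (minus strand) for Mcm7 and chr17:56304113-56304312 (plus strand) for Uhrf1, which keeps DNA methylation in step with replication.
Mcm5: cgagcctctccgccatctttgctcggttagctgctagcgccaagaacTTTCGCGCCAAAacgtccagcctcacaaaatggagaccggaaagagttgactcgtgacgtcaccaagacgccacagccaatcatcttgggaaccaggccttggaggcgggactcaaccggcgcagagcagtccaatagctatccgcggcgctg
Mcm6: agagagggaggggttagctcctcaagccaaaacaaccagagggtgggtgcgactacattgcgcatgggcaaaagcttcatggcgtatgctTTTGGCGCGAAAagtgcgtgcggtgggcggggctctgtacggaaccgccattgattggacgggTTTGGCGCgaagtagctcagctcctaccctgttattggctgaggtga
Mcm7: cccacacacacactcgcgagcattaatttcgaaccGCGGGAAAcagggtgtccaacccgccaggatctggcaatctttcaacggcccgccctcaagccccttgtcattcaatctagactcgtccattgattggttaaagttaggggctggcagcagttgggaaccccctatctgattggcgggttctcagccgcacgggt
Uhrf1: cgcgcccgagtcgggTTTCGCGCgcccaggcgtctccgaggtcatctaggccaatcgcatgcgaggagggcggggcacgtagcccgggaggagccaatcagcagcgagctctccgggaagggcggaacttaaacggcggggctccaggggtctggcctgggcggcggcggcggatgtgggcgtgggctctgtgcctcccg
The matches begin 153 and 149 bases before the start of Mcm5, 110, 106 and 47 bases before that of Mcm6, 165 bases before that of Mcm7 and 185 bases before that of Uhrf1. Uhrf1 was detected in 33 bled cells, against 23 and 22 normal cells. Mcm6 was detected in 37 bled cells, against 30 and 27, and Mcm7 in 31 bled cells, against 23 and 23.

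At least 15 of the 40 listed genes were detected in 31 of 50 bled cells (62%, exact 95% interval 47.2% to 75.3%), against 16 of 51 cells of plate 1 (31.4%, 19.1% to 45.9%) and 17 of 48 cells of plate 2 (35.4%, 22.2% to 50.5%). The threshold of 15 was chosen after the values were seen. The median bled cell detected 18.5 of these genes, against 10 and 10.5 in normal cells, and the values reached from 1 to 38 in bled MPP1. Among mid-range cells the medians were 13 in bled MPP1, against 9.5 and 10, and among cells with 3500 genes or more 32 in bled MPP1, against 27 and 21. Within each plate, cells with more replication genes also detected more genes in all, with a Spearman rho over cells of 0.82 in bled MPP1, against 0.52 and 0.69 in normal MPP1 (a description, since the 2 counts share the depth of the cell).

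**Figure D4:**
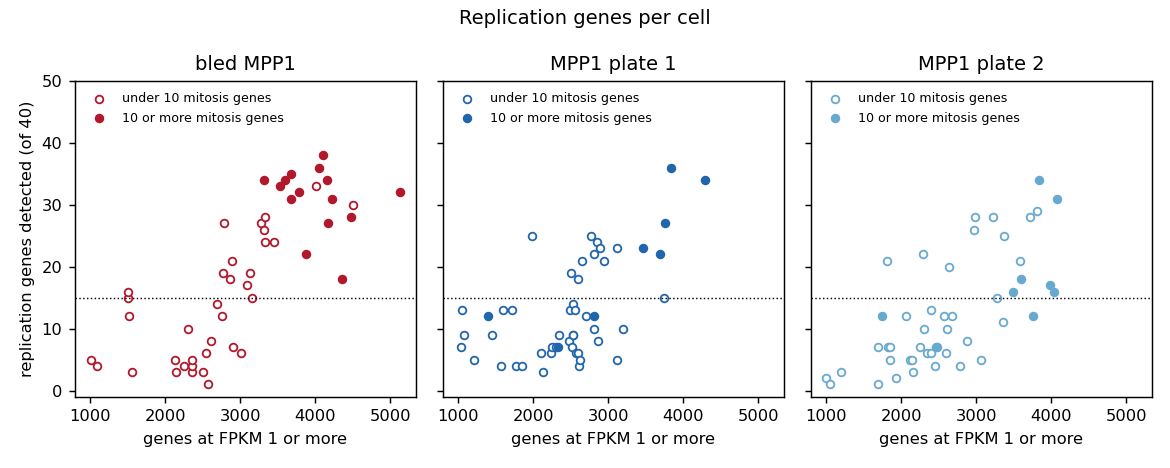
Replication genes detected per cell (of 40) against all genes at FPKM 1 or more, for the kept cells of bled MPP1 and of MPP1 plates 1 and 2: each point is a cell, filled where it also held 10 or more mitosis genes, and the dotted line marks 15 replication genes. In bled MPP1 31 of 50 cells lie on or above the line, against 16 of 51 and 17 of 48, and all 15 filled bled cells lie above it.

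Genes of mitosis did not follow as a list. Of 32 tested genes for the spindle, the kinetochore and mitotic cyclins, 12 lay above both normal plates and 2 below, with a median difference of 0.22, near the 0.20 of all genes. Cells of 3500 genes or more, which the mid-range band leaves out, held up to 33 mitosis genes in bled MPP1. Mid-range bled cells held at most 10, against up to 29 and 30 in normal ones, so the band is not a control for depth alone. With this limit, 2 of the 32 genes lay above and 18 below in mid-range cells, with a median of -0.26. None was called by limma (4 higher and 0 lower at an unadjusted p under 0.05). Aurkb, the kinase of the chromosomal passenger complex, was detected in 11 bled cells, against 3 and 6 (difference 1.01, limma adjusted p = 0.075), while Ube2c, a ubiquitin-conjugating enzyme of late mitosis chosen after its values were seen, had a difference of -0.55. At least 10 mitosis genes were detected in 15 of 50 bled cells (30%), against 8 of 51 (15.7%) and 9 of 48 (18.8%) normal cells. All 15 such bled cells also had at least 15 replication genes, as did 5 of the 8 and 6 of the 9 normal cells. Among cells of 3500 genes or more, the mean count of mitosis genes was 19.7 in 16 bled cells, against 20.4 in 5 and 21.4 in 9 normal cells (medians 17, against 25 and 27).

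Among genes tied to the demand for red cells, Id1 had a large difference. It passed the filter for testing only through its high bled share, so its limma result is no separate support. Id1 is an inhibitor of basic helix-loop-helix transcription factors and a direct target of BMP signals. It was detected in 22 of 50 bled cells (44%, exact 95% interval 30.0% to 58.7%). On plate 1 it was seen in 6 of 51 cells (11.8%), and on plate 2 in 0 of 48 (exact 95% interval 0% to 7.40%). Its level was 2.16 in bled MPP1, against 0.61 and 0.00 in normal MPP1 (difference 1.86, limma adjusted p = 0.031). The other members of the family did not share this: Id2 was seen in 5 bled cells, against 6 and 9, Id3 in 13, against 15 and 5, and Id4 in 1, against 0 and 0. Smad7, another BMP and TGF-beta target, was seen in 16 bled cells, against 24 and 20, and Smad6 in 1, against 2 and 1. Hes1, a transcriptional repressor and Notch target, was detected in 27 bled cells, against 8 and 16, with levels of 2.36, against 0.63 and 0.96 (difference 1.57, adjusted p = 0.088). Both were also more often detected on the bled HSC plate than on the normal HSC plates: Id1 in 23 of 48 bled HSC, against 5 of 50 and 1 of 53, and Hes1 in 43 of 48, against 3 of 50 and 6 of 53. The remaining normal HSC plate, prepared with spike-in RNA and kept out of the fit, had Id1 in 7 of 73 cells but Hes1 in 51 of 73. Id2, Id3, Id4, Smad6 and Smad7 were looked up after the result for Id1 was seen.

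Of 20 tested genes of the list for stress erythropoiesis 6 lay above both normal plates and 6 below, with a median difference of 0.07, and Id1 was the only one called. Over all tested genes 47.7% lay above and 12.7% below, with a median of 0.20, so the list stood lower than these in all cells. In mid-range cells its median was 0.04, against 0.05 for all tested genes. Id1 reached the test only through its bled share, as said above. Epor, the erythropoietin receptor, was detected in 9 bled cells (18%, exact 95% interval 8.6% to 31.4%), against 4 and 2 normal cells. Hif1a, the oxygen-responsive factor, was detected in 14 bled cells, against 6 and 6, and Cish, a STAT5 target, in 16, against 7 and 7. These 3 genes had limma adjusted p values of 0.35, 0.31 and 0.51. Of 11 tested erythroid genes 6 lay above both plates and 2 below (5 and 2 in mid-range cells), with a median difference of 0.39, and none was called by limma (3 higher and 0 lower at an unadjusted p under 0.05). Gfi1b, a repressor needed for red cells and platelets, had a level of 2.71 in bled MPP1, against 1.52 and 1.87, and Blvrb, biliverdin reductase B, a level of 1.74, against 0.88 and 0.51. Gata1, the factor that commits cells to the erythroid line, was seen in 5 bled cells, against 7 and 8, and Klf1, its partner in later red cell precursors, in 0, against 0 and 2. Another 16 listed erythroid genes did not reach the filter. Heme and iron genes had 9 of 17 above and 1 below, with a median of 0.26 (6 above and 3 below in mid-range cells). Over all tested genes 47.7% lay above and 12.7% below, so the counts above in the erythroid and heme lists lay near that share. Megakaryocyte genes had 2 of 11 above and 2 below, with a median of 0.05 (1 above, 4 below and -0.24 in mid-range cells). At least 3 erythroid genes were found in 74% of bled cells, against 78.4% and 75% of normal cells.

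Genes of the granulocyte and monocyte line split. Prtn3, a protease of granulocyte precursors, was detected in 38 of 50 bled cells (76%, exact 95% interval 61.8% to 86.9%), against 25 of 51 (49.0%) and 23 of 48 (47.9%) normal cells, with levels of 4.46, against 2.74 and 2.39 (difference 1.90, limma adjusted p = 0.10). Lyz2, lysozyme, was detected in 38 bled cells, against 31 and 24 (adjusted p = 0.17). The other granule genes of promyelocytes stayed at or near 0: Mpo was seen in 0 bled cells, against 0 and 1, and Elane and Ctsg in 0 cells of all 3 plates. Csf3r, the G-CSF receptor, was seen in 8 bled cells, against 25 and 13, and Cebpb, a factor of stressed granulocyte production, in 3, against 17 and 11. Their limma adjusted p values were 0.24 and 0.27. Of the 20 listed genes 6 were tested, 2 above both normal plates and 4 below.

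Genes of the stem cell program lay mostly above the normal plates in bled MPP1. Of 24 tested genes 18 lay above both normal plates and 2 below, with a median difference of 0.48 in all cells and 0.65 in mid-range cells, where 13 lay above and 2 below. At equal detection 10 lay above and 10 below. None was called by limma (6 higher and 1 lower at an unadjusted p under 0.05). Ifitm3, a membrane protein that restricts viral entry and is abundant in HSC, had a level of 9.23 in bled MPP1, against 7.34 and 6.96 (difference 2.08, adjusted p = 0.10). Its neighbour Ifitm1 had a level of 7.95, against 6.71 and 5.34 (adjusted p = 0.20). The 2 genes are near copies in part, and the counting could split reads between them. Cd27, a receptor of the TNF family chosen after its values were seen, had a difference of -1.37. Of 20 tested interferon response genes 14 lay above and 2 below (10 and 1 in mid-range cells), with a median difference of 0.30 and no call by limma (1 higher and 0 lower at an unadjusted p under 0.05). Ifi35 was detected in 25 bled cells, against 16 and 13.

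No gene was called lower in bled MPP1, and of the lists with at least 10 tested genes that of the immediate early genes had the lowest median. Immediate early genes are transcribed within minutes of a stimulus, before any new protein is made. Of 24 tested members 2 lay above both plates and 8 below, with a median difference of -0.30 in all cells and -0.41 in mid-range cells. At equal detection 3 lay above and 15 below. At an unadjusted limma p under 0.05, 0 were higher and 4 lower. Nr4a1, an orphan nuclear receptor linked to stem cell quiescence, was detected in 28 of 50 bled cells (56%, exact 95% interval 41.3% to 70.0%), against 44 of 51 (86.3%) and 38 of 48 (79.2%) normal cells, with levels of 2.85, against 4.68 and 5.11 (difference -2.04 ± 0.60, limma adjusted p = 0.088). Fosl2, a subunit of AP-1, was detected in 7 bled cells, against 19 and 19. Egr1 had a level of 5.35 in bled MPP1, against 6.57 and 6.66. Mcl1, a survival factor of short-lived mRNA, had a level of 2.55, against 4.29 and 3.73. Other members did not lie below: Fos had a difference of 0.53, Junb of 0.00 and Dusp1 of 1.18. These 3 were chosen after their values were seen.

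Wells with no cell carried these transcripts too, and differed between the plates. An immediate early gene was detected on average in 20.55% of such wells on the bled plate, against 36.9% and 40.1% on the normal plates. The same mean over all tested genes was 6.82%, against 9.75% and 11.7%. Nr4a1 was seen in 20.7% of the bled no-cell wells, against 46.4% and 53.8%, and Fosb in 17.2%, against 82.1% and 69.2%. The part of this background in the result was not tested. Among genes outside the list, Btg1, an antiproliferative factor, had a level of 4.11 in bled MPP1, against 6.01 and 5.74. Thoc4, an mRNA export adaptor, had a level of 1.73, against 3.27 and 3.17. The splicing factor Srsf5 had a level of 4.03, against 5.64 and 5.23, and Pitpnc1, a lipid transfer protein, a level of 2.76, against 4.41 and 4.27. Their limma adjusted p values were 0.21, 0.19, 0.35 and 0.21. Genes below both plates in level, share and equal detection (689, or 9.17%) had a median transcript length of 3459.5 bases, and those above in all 3 measures (1904, or 25.3%) one of 1990 bases. Gadd45a and Gadd45g, growth-arrest genes of the p53 list, were seen in 2 and 5 bled cells, against 10 and 8 on plate 1 and 15 and 10 on plate 2. Of the 13 tested p53 targets 5 lay above both plates and 5 below, with a median of -0.21, and of the 15 tested quiescence regulators 4 lay above and 5 below, with a median of -0.11.

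The immediate early genes had a higher mean level on the bled HSC plate (3.96) than on the normal HSC plates in the fit (2.49 and 2.51). In MPP1 the bled plate did not lie higher. Among lists with at least 10 tested genes, the bled difference in MPP1 was most unlike that in HSC for these genes. The test of this difference, (bled MPP1 minus MPP1) minus (bled HSC minus HSC) in the same limma fit, called 14 genes as lower (0.186%) and 3 as higher (0.0399%). It called 9 genes in all without HSC replicate 2. Of the 24 immediate early genes, 5 were among those lower: Nr4a1, Nr4a2, Fosb, Atf3 and Fosl2. Nr4a1 had a level of 2.85 in bled MPP1, against 4.68 and 5.11 in MPP1, and of 5.41 in bled HSC, against 1.56 and 1.09 in HSC, an interaction of -6.12 ± 0.85 (adjusted p = 1.6e-05). Its relative Nr4a2 had 1.32 in bled MPP1, against 2.33 and 2.92, and 4.12 in bled HSC, against 1.18 and 0.87 (interaction -4.39 ± 0.73, adjusted p = 0.00062). Fosl2 had 0.41 in bled MPP1, against 1.64 and 1.62, and 2.06 in bled HSC, against 0.30 and 0.36 (interaction -2.95, adjusted p = 0.0048). For all 14 genes the level on the bled HSC plate lay above both normal HSC plates in the fit. In MPP1 the same 14 genes had differences between -2.04 and -0.47, and none of them passed the test of bled MPP1 against MPP1. On the other side stood Ppil1, with 1.502 in bled HSC, against 1.94 and 2.38 in HSC (interaction 3.75 ± 0.76, adjusted p = 0.0064), Ecsit and Tagap1.

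**Figure D5:**
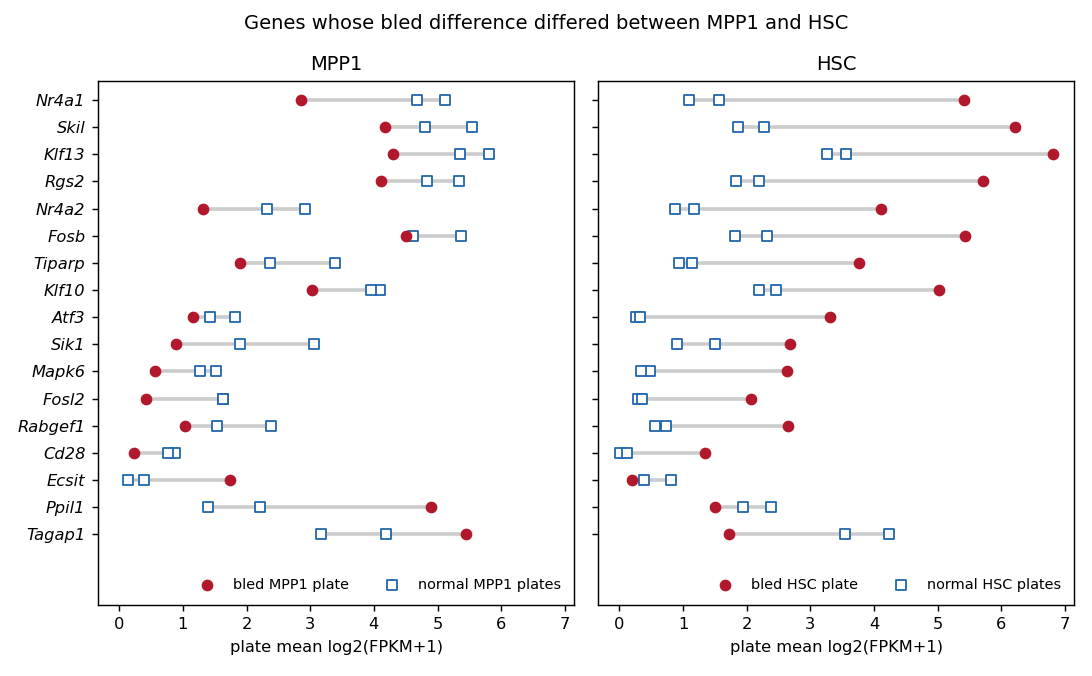
Plate mean log2(FPKM + 1) of the 17 genes whose bled difference differed between MPP1 (left) and HSC (right) by the limma interaction, with the bled plate as a red dot and the normal plates as blue squares. For 14 genes the red dot is lowest in MPP1 and highest in HSC, and for Ecsit, Ppil1 and Tagap1 it is highest in MPP1 and lowest in HSC.

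Mean levels of the respiration and proteasome genes lay above the normal plates on both bled plates. The mean level of the oxidative phosphorylation genes was 5.31 in bled MPP1, against 4.09 and 4.17 in MPP1, and 4.65 in bled HSC, against 4.12 and 3.99 in HSC. Proteasome genes had 4.19 in bled MPP1, against 3.00 and 3.23, and 3.39 in bled HSC, against 2.89 and 3.20. Replication genes had 2.61 in bled MPP1, against 1.75 and 1.63, while bled HSC had 1.11, against 1.03 and 1.62. The 2 comparisons share no plate, but both bled plates stand in the same table, and the list differences between the cell types were not tested. Transcript length moved with the difference in HSC too. The median of bled HSC minus HSC was 0.23 for transcripts under 1000 bases and 0.03 from 1000 to under 2000 bases. It was -0.04 from 2000 to under 4000 bases and -0.08 from 4000 bases. The part of length in what the 2 bled plates share was not tested.

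Bulk libraries of sorted populations from normal mice, 1 library each, give the levels of these genes in other populations. Of 35 replication genes read in bulk, 31 were higher in preCFU-E, a progenitor of the red cell line, than in bulk MPP1, and 31 in GMP-11 and in ProEry, but 9 in HSC. Of 30 proteasome genes 25 were higher than in MPP1 in GMP-7, a gate of granulocyte and macrophage progenitors, and 8 in HSC. Of 47 oxidative phosphorylation genes 37 were higher in CMP, 35 in GMP-7 and 16 in HSC. The same shares over all tested genes were 67.7% for preCFU-E, 71.3% for GMP-11, 62.1% for ProEry, 75.6% for GMP-7, 73.8% for CMP and 38.6% for HSC. For oxidative phosphorylation the shares (78.7% in CMP, 74.5% in GMP-7 and 34.0% in HSC) lay near those of all genes. With 1 library per population these values have no replicate check.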

How the data were processed

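Single cells had been sorted into 96-well plates and sequenced as Smart-seq libraries, per the labels' protocols. The authors deposited FPKM values per gene and well, in 1 table for the bled plates and 1 for the normal plates; the submitters' processing notes name TopHat 1.3.3, Cufflinks 1.2.1 and mm9. Read depth is unknown, so precision was judged from the number of cells and the spread between plates.

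Cells are not replicates: values were averaged per plate as log2(FPKM + 1), with a pseudocount of 1. limma 3.58.1 (R 4.3.3, trended variances) was fitted to 6 plates in 4 groups with 2 residual degrees of freedom and Benjamini-Hochberg adjustment over 7516 genes, two-sided. The labels do not say whether plates came from separate mice, so p-values measure the spread between plates. Intervals are exact binomial ones (Clopper-Pearson, 95%).

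Of 715 entries in the 32 gene lists, 707 matched the files. The members and lists were chosen with earlier results of these data known. Named genes were up to 15 per direction by distance to the nearer normal plate, up to 10 called genes per direction, up to 4 members per list and the sort markers; others were chosen after their values were seen, also where the text names a list member beyond these. Transcript lengths (GENCODE) and promoters (RefSeq, GRCm38.p6) are of another build than the files and were joined by gene. Tools also included Python 3.11.15. Alternatives covered the plates entered, the pseudocount, the filters, the scaling and each plate left out. Not every gene that the naming rule picked is reported here.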

Additional observations from a re-analysis of the deposited data

Results flagged for a closer look

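The bled difference in MPP1 was unlike that in HSC, by the limma interaction, for 17 genes, with 9 without HSC replicate 2. Each value is the log2 difference of bled MPP1 from MPP1 minus that of bled HSC from HSC. Among factors that act on transcription it was -6.121 for Nr4a1, -5.149 for Skil, -4.673 for Klf13, -4.394 for Nr4a2, -3.834 for Fosb, -3.701 for Klf10, -3.483 for Atf3 and -2.951 for Fosl2. Among genes of signalling it was -4.656 for Rgs2, -3.058 for Sik1, -3.056 for Mapk6, -2.926 for Rabgef1 and -1.863 for Cd28. Tiparp, a target of the aryl hydrocarbon receptor, had -3.714. It was 3.934 for Tagap1, 3.751 for Ppil1 and 1.873 for Ecsit. Detection in MPP1 wells with no cell differed among these genes. Skil was seen in 69.0% of such wells on the bled plate, against 66% of the bled cells. Fosb was seen in 82.1% and 69.2% of them on the normal plates, against 84.3% and 95.8% of the cells. Mapk6 was seen in 0% on the bled plate and in 14.3% and 15.4% on the normal plates. The part of this background was not tested.

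For 7 lists the mean level on the bled plate lay on one side of both normal plates in MPP1 and on the opposite side of the HSC plates in the fit. With the spike-in HSC plate, whose means were 0.93, 1.60, 0.35 and 0.24, bled HSC (1.23, 1.67, 0.68 and 0.39) was not below all normal HSC plates for the interferon, erythroid, mature red cell and mitosis lists. These differences between the cell types were not tested. The mean level of the immediate early genes differed by -0.312 in bled MPP1 and by 1.46 in bled HSC, and that of the quiescence regulators by -0.165 and 0.84. The interferon response genes differed by 0.315 in bled MPP1 and by -0.68 in bled HSC. The erythroid list differed by 0.373 and -0.35, and the mature red cell list, with only 3 tested genes, by 0.577 and -0.32. The mitosis list differed by 0.245 and -0.43, and the lymphoid list, with only 4 tested genes, by 0.102 and -0.31.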

How the results depend on the processing

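The number of genes called higher in bled MPP1 (43) was sensitive to the processing: it was 101 with the 3 MPP1 plates alone, 23 with the spike-in HSC plate added, 2 on the log2 of the mean FPKM, 84 at a pseudocount of 0.1, 8 at a 5% filter, 0 with no filter, 15 with each cell scaled to the same total, and 0 in mid-range cells (at least 2000 and fewer than 3500 genes). With each plate left out it ran between 1 (without MPP1 replicate 1) and 62. At an unadjusted limma p under 0.05, 1252 genes were higher and 125 lower with no filter, and 462 and 196 in mid-range cells. The called genes had a positive difference under each setting in which they were tested. They were picked as higher on these same plates, so that direction was largely set by the choice and is no separate support. The count called lower (0) was 1 with the 3 MPP1 plates alone, at a pseudocount of 0.1, with cells scaled to the same total and in cells with at least 2000 genes, 2 with no minimum of genes per cell, and 0 to 1 with a plate left out. The interaction count (17) was 10 with the spike-in plate added, 2 on the log2 of the mean FPKM, 27 at a pseudocount of 0.1, 11 at a 5% filter, 0 with no filter, 26 with no minimum of genes, 8 in mid-range cells, and 9 to 19 with a plate left out. Genes above both MPP1 plates (3582) numbered 2195 on the log2 of the mean FPKM, 5404 with no filter, 2342 at equal detection, 2197 in mid-range cells (filtered anew) and 4387 to 4912 with an MPP1 plate left out. Genes below both (953) numbered 1618, 2574, 1495 and 1602 to 1979 under the last 4 of these. A looser filter tests more genes; for the other settings the cause was not tested. Medians of 4 lists changed sign in mid-range cells: mitosis (0.22 in all cells, -0.26 there), ribosome biogenesis (0.28, -0.03), heat shock (0.21, -0.13) and megakaryocyte genes (0.05, -0.24). No paired analysis was possible because the bled plates carry no replicate number that normal plates share. Read depth is unknown, and 1 bled plate of 50 cells limits each share to an interval about as wide as those printed.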
